A study of Vitis vinifera with 16 samples.

Results

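The 3 chitinase genes described here are the endochitinase LOC100255900, the class IV chitinase CHI4D and LOC132253710, a gene described as endochitinase A. They were picked by name from the 13411 genes of the deposited table, and the choice was made with their values in all 16 libraries known. Their own values are therefore given as a description, with no test. RNA was sequenced from grape ovules of the varieties Zhongpu No. 18 (ZP) and Muscat Hamburg (MH), taken 35, 45, 55 or 61 days after flowering, with 2 libraries for each of the 8 groups of variety and day. The labels name no treatment. The ovules were frozen with their skin left on, and the labels state neither which variety is seedless nor whether paired libraries stem from different vines. Muscat Hamburg is known as a seeded table grape. A level below is an FPKM value, that is, a gene's fragment count corrected for its length and for the library's size, and a group level is a mean ± SD (n = 2 libraries). A difference is given ± its standard error on the log2(FPKM + 1) scale, on which changes of low levels look smaller than they are.

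Chitinases cut chitin, a polymer of fungal walls and insect cuticles that plants do not make. Plants hold them as pathogenesis-related proteins, in a pair of glycoside hydrolase families with unlike folds, and many also carry them in healthy seeds and fruits. Class IV chitinases are among the abundant soluble proteins of ripening grape berries, where they are known from work on wine haze. Chitinase-like proteins are relatives known in Arabidopsis for a role in cellulose deposition rather than defence.

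The libraries differed widely in seed storage transcripts, which bears on the endochitinase. The 33 genes described as storage globulins, albumins, vicilins or oleosins summed to between 63030.4 and 244425 FPKM in the MH libraries and to between 94.2 and 3972 FPKM in the ZP libraries. As a share of a library's FPKM total, they held 17.0% to 46.3% in MH and 0.0267% to 1.11% in ZP. Of these genes 0 to 3 were listed at 0 in an MH library and 1 to 7 in a ZP library. Since FPKM is a share of all fragments, and ovule RNA is a mixture of tissues, fewer cells of a type and less RNA per cell cannot be told apart. TRANSPARENT TESTA 16 (LOC100244209), a regulator of ovule and seed coat development, was detected with group means of 1.89 to 73.3 FPKM. Other genes looked up by description for ovule identity differed widely in level. Group means were 39.0 to 188 FPKM in a BEL1-like homeodomain protein 1 gene (LOC100255734) and 0.00995 to 0.658 FPKM in an AP2-like factor gene (LOC100256966). The depth, estimated from how low FPKM values are spaced, was 2e+07 to 3e+07 fragments a library.

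The 3 genes lie at 2 places of the grape genome, in the table's coordinates, which equal those of the RefSeq assembly ASM3070453v1. LOC100255900 lies on the minus strand of chromosome 4, 22424805 to 22425808, and is annotated as protein-coding. CHI4D lies on the minus strand of chromosome 5, 25579028 to 25580482, and is also protein-coding. LOC132253710 lies on the plus strand of chromosome 5, 25583184 to 25584732, only 2701 bases from CHI4D, and the 2 genes point away from each other. RefSeq lists LOC132253710 as a long non-coding RNA, whereas the authors' table gives it a class I chitinase domain and the description endochitinase A. Levels are given for whole genes, not for exons or introns, and no other RefSeq gene overlaps any of the 3.

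The endochitinase LOC100255900 was one of the most abundant transcripts of late MH ovules. It stood at 175 and 182 FPKM in the MH libraries of day 35, at 25087 and 19940.5 at day 45, at 29728 and 25307 at day 55, and at 34141 and 26399 at day 61. Every MH library of day 45 or later stood far above those of day 35, and the libraries of days 55 and 61 overlapped each other. The group mean was 126-fold higher at day 45 than at day 35, and then 1.22-fold and 1.10-fold higher at each next day. From day 45 on it ranked between 4 and 5 among all 13411 genes in each MH library and held 4.60% to 6.48% of the summed FPKM, against ranks of 255 and 269 at day 35.

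In ZP the same gene was low and uneven between the paired libraries of a day. It stood at 0.0821 and 13.6 FPKM in replicates 1 and 2 of day 35, at 0.226 and 17.9 at day 45, and at 1.37 and 39.1 at day 55. At day 61 the values were 103 and 134 FPKM. Replicate 2 was thus the higher one on all 4 days, and far more so on the first 3. In estimated fragments the low values came from 2 (95% exact Poisson interval 0.242 to 7.22), 5 (1.62 to 11.7) and 28 (18.6 to 40.5) fragments, and those of replicate 2 from 287, 348 and 971. The ratio of replicate 2 to replicate 1 was 166 (95% exact interval 45.6 to 1379) at day 35, 79.0 (33.5 to 245) at day 45, 28.6 (19.7 to 43.3) at day 55 and 1.30 (1.23 to 1.39) at day 61. These intervals cover counting error only. The replicate gap was thus larger than counting error, and in CHI4D and LOC132253710 no such gap was present in the same libraries (replicate 2 over replicate 1 was 0.661 and 0.579 at day 35, 0.959 and 0.741 at day 45, and 0.904 and 0.969 at day 55).

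**Figure D1:**
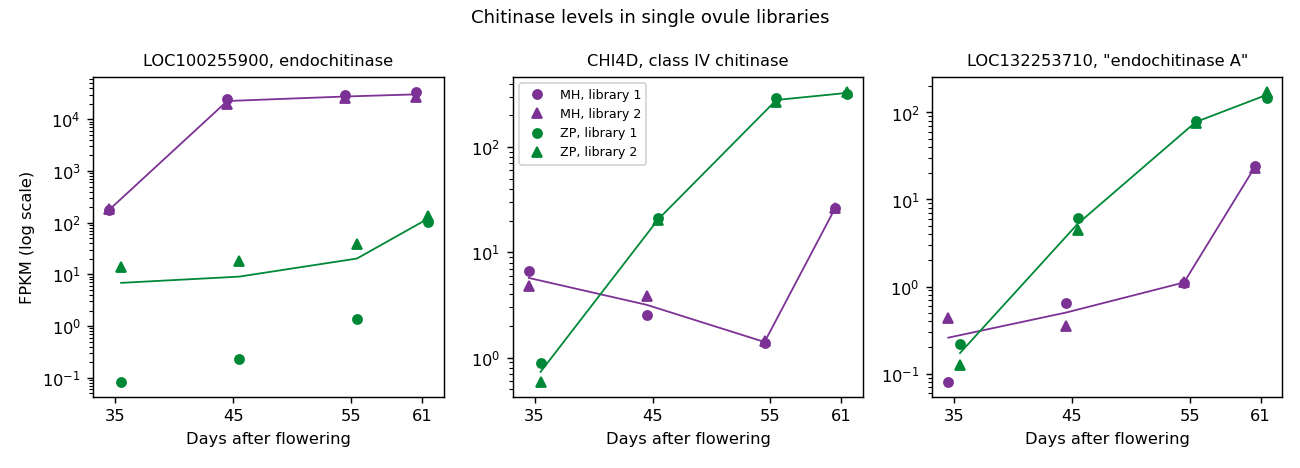
FPKM (log scale) of LOC100255900, CHI4D and LOC132253710 against days after flowering, with 1 point for each library (circle, replicate 1; triangle, replicate 2), MH in purple and ZP in green, and lines through the group means of 2 libraries. The endochitinase stood at 19940.5 FPKM or more in all MH libraries from day 45 on, while its ZP libraries of days 35 to 55 lay far apart; CHI4D and LOC132253710 stood highest in ZP at day 61.

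Between the varieties the endochitinase was lower in ZP on every day, with no overlap of libraries. Of all 12637 genes tested, 37.3%, 23.9%, 25.1% and 25.1% were lower in ZP without overlap on the 4 days in turn, and 53.3%, 64.9%, 60.8% and 62.7% were higher. Its group mean was 26.0-fold higher in MH at day 35, 2488-fold at day 45, 1359-fold at day 55 and 255-fold at day 61. The fitted difference, ZP minus MH, was -5.50 ± 1.36 at day 35, -12.18 ± 1.36 at day 45, -11.46 ± 1.36 at day 55 and -7.98 ± 1.36 at day 61. The standard error of 1.36 comes from 1 spread shared by all 8 groups, the uneven ZP pairs included. The MH pairs lay closer, with replicate 2 over replicate 1 at 1.04, 0.795, 0.851 and 0.773 on the 4 days. The day 61 minus day 35 difference was 7.38 ± 1.36 in MH and 4.90 ± 1.36 in ZP. The ZP value was 3.02 without ZP day 35 replicate 1, and 6.78 without ZP day 35 replicate 2. In the order of group levels the ZP groups of days 35, 45 and 55 came lowest and overlapped each other. Above them without overlap came ZP at day 61 (119 ± 22.2), then MH at day 35 (179 ± 5.12) and the 3 later MH groups.

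The endochitinase and the storage transcripts did not keep a fixed ratio. For every 1000 FPKM of summed storage genes, the MH libraries held 2.13 and 2.89 FPKM of endochitinase at day 35 and 103 to 165 FPKM from day 45 on. The storage sum itself was 2.92-fold higher at day 45 than at day 35 in MH, against the 126-fold of the endochitinase. In ZP the ratio was 0.871, 0.858 and 4.74 in replicate 1 of days 35, 45 and 55, and 73.1, 48.0 and 57.7 in replicate 2. At day 61 it was 61.2 and 33.8. The storage sum too was higher in replicate 2 of ZP, by 1.98-fold, 1.41-fold, 2.35-fold and 2.36-fold at days 35, 45, 55 and 61. At day 61 that was above the 1.30-fold of the endochitinase, and on the other days below its ratio. Of the 33 storage genes, 11, 4, 3 and 0 were over 10-fold higher in replicate 2 on the 4 days, beside 154, 103, 136 and 147 of all 13411 genes. These counts had no minimum level, so a gene at 0 in replicate 1 counted with any value above 0 in replicate 2. In ZP at day 35, 7 storage genes were at 0 in replicate 1 and 2 in replicate 2. The part of seed storage tissue in the endochitinase values was not tested.

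**Figure D2:**
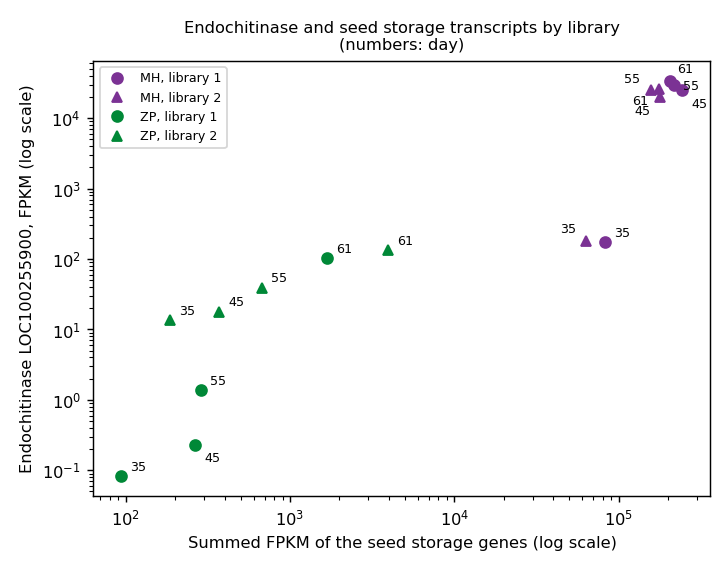
FPKM of the endochitinase LOC100255900 against the summed FPKM of the 33 seed storage genes (both axes on a log scale), 1 point for each of the 16 libraries, labelled with its day. The MH libraries of day 35 held 63030.4 and 82162 FPKM of storage transcripts at only 182 and 175 FPKM of endochitinase, and the ZP libraries of days 35 to 55 fell into a low replicate 1 and a higher replicate 2.

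The 3 profiles most like that of the endochitinase were those of a globulin, a vicilin-like and a lipid-transfer protein gene. By Pearson's correlation of log2(FPKM + 1) over the 16 libraries, among 7108 genes with a description and at least 10 FPKM in some group, the first was the basic 7S globulin LOC100240860 (r = 0.992). The next were the vicilin-like antimicrobial peptides gene LOC100852645 (r = 0.984) and LOC100266074, a gene for a non-specific lipid-transfer protein, (r = 0.983). These values are descriptive, since the 16 libraries share varieties and days. Against CHI4D and LOC132253710 the endochitinase gave r = -0.28 and r = -0.15.

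The genes beside the endochitinase had far lower levels than it in MH, and some of them shared its order of varieties at late days. Of 10 RefSeq genes within 50000 bases, 7 were in the table. The nearest, the TIFY 5A gene LOC100266330 at 942 bases, of a family that represses jasmonate responses, had MH group means of 0, 0.759, 1.02 and 3.93 FPKM at days 35, 45, 55 and 61, and ZP means of at most 0.0973 FPKM. The acyl-activating enzyme gene LOC100261122, 6529 bases away, had MH means of 0.109, 0.471, 1.60 and 2.10 FPKM and ZP means of at most 0.228 FPKM. Both were thus higher in MH at late days by group means, as the endochitinase was. So was LOC100852599, 36292 bases away, with 4.80 against 3.99 FPKM at day 55 and 3.79 against 2.74 FPKM at day 61. Of all tested genes, 25.1% were lower in ZP without overlap on each of these days. That is a stricter measure than group means, and the share of all genes higher in MH by group means was not computed. The class I chitinase CHI1B, 11715 bases away, stood at 0.0198 to 0.0969 FPKM in MH and at 0.492 ± 0.0424, 7.76 ± 0.258, 19.3 ± 0.657 and 5.42 ± 0.374 FPKM in ZP at days 35, 45, 55 and 61. CHI1B, in contrast, was higher in ZP, as were LOC100243861, LOC104877819 and LOC100266184 by group means. How fragments shared by near-identical copies were assigned is not given in the sources used here, so values of chitinase copies that lie side by side are uncertain to that extent.

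CHI4D, whose product is of the class found in ripening berries, had the opposite pattern from day 45 on. In ZP it stood at 0.883 and 0.584 FPKM at day 35, at 21.1 and 20.3 at day 45, at 293 and 265 at day 55 and at 317 and 335 at day 61. In MH it stood at 6.66 and 4.76 FPKM at day 35, at 2.52 and 3.83 at day 45, at 1.38 and 1.44 at day 55 and at 26.4 and 26.5 at day 61. The libraries of each ZP group thus lay above those of the day before, whereas in MH the levels were lower at each day up to day 55 and 18.8-fold higher at day 61 than at day 55. No 2 groups next to each other in the order of levels overlapped, and the share of all genes with such an order was not counted. The lowest values rested on 28 and 16 estimated fragments in ZP at day 35.

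The direction of the variety difference in CHI4D was not the same on all days. At day 35 the MH mean was 7.79-fold above that of ZP (5.71 ± 1.34 against 0.734 ± 0.211 FPKM), a difference of -1.94 ± 0.16. At day 45 ZP was 6.52-fold above MH (20.7 ± 0.613 against 3.17 ± 0.929), a difference of 2.40 ± 0.16. At day 55 it was 198-fold above (279 ± 19.96 against 1.41 ± 0.0404), a difference of 6.86 ± 0.16, the widest of the 4 days. At day 61 it was 12.3-fold above (326 ± 12.8 against 26.4 ± 0.0819), a difference of 3.57 ± 0.16. These directions were the same with a pseudocount of 0.1 and after each of the 3 other scalings tried. The day 61 minus day 35 difference was 7.56 ± 0.16 in ZP and 2.04 ± 0.16 in MH.

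LOC132253710 was near 0 at day 35 in both varieties and highest in ZP at day 61. In ZP it stood at 0.218 and 0.126 FPKM at day 35, at 6.07 and 4.50 at day 45, at 78.9 and 76.5 at day 55 and at 145 and 173 at day 61. In MH it stood at 0.0794 and 0.437 FPKM at day 35, at 0.652 and 0.352 at day 45, at 1.11 and 1.12 at day 55 and at 23.9 and 23.0 at day 61. At day 35 the varieties overlapped, and at the 3 later days each ZP library was above each MH library of that day, as in 64.9%, 60.8% and 62.7% of all genes. The MH values of day 35 rested on 1 and 6 estimated fragments (95% exact Poisson intervals 0.0253 to 5.57 and 2.20 to 13.1), so that their gap was within counting error.

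The ZP mean of LOC132253710 was 10.5-fold above the MH mean at day 45, 69.8-fold at day 55 and 6.77-fold at day 61. The fitted differences, ZP minus MH, were -0.09 ± 0.17 at day 35, 2.06 ± 0.17 at day 45, 5.22 ± 0.17 at day 55 and 2.70 ± 0.17 at day 61. As in CHI4D, the widest gap between the varieties was that of day 55. The day 61 minus day 35 difference was 7.09 ± 0.17 in ZP and 4.30 ± 0.17 in MH.

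CHI4D and its neighbour LOC132253710 had similar but not identical profiles. Their Pearson correlation over the 16 libraries was r = 0.956. Among the 7108 genes compared, LOC132253710 ranked 5 for likeness to CHI4D and CHI4D ranked 2 for likeness to LOC132253710. The genes most like CHI4D were a 21 kDa protein gene (LOC100243664, r = 0.981), the probable serine/threonine-protein kinase WNK4 gene (LOC100255269, r = 0.979) and a hypothetical protein gene (LOC100240944, r = 0.973). Those most like LOC132253710 were the same kinase gene (r = 0.959), CHI4D, and the amino acid permease 6 gene (LOC100257555, r = 0.956), which encodes a transporter.

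The ratio of the 2 neighbours differed between days. Per length, the level of LOC132253710 was 0.216 to 0.289 times that of CHI4D in the ZP libraries of days 35, 45 and 55, and 0.457 and 0.518 times at day 61. In MH it was 0.0119 and 0.0918 times at day 35, 0.259 and 0.0919 at day 45, 0.801 and 0.781 at day 55, and 0.909 and 0.870 at day 61. In both varieties the ratio was thus highest at day 61, but the early ratios rested on few fragments. For LOC132253710 these were an estimated 1 and 6 in MH at day 35, 12 and 5 at day 45, and 19 and 14 at day 55. In ZP at day 35 they were 4 and 2. Those ratios are imprecise, and their differences were not tested. The FPKM steps correspond to transcript lengths of 1077 bases for CHI4D, 623 bases for LOC132253710 and 827 bases for LOC100255900.

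Another chitinase gene of that stretch, CHI4C, lies 10590 bases beyond LOC132253710 and was low, at 0.952 to 1.95 FPKM in MH and 2.59 to 3.78 FPKM in ZP. The endochitinase PR4-like gene LOC100257850, 40715 bases from CHI4D on its other side, stood at 21.3 to 40.3 FPKM in ZP and 1.74 to 5.10 FPKM in MH. A list of 75 genes was meant as a check for flesh or skin carried along. It took, by description, ripening-related grip proteins, anthocyanidin 3-O-glucosyltransferases, polygalacturonases, thaumatin-like proteins and MYBA. Whether these gene families are specific to flesh or skin was not tested. The listed genes summed to 459 to 859 FPKM in the MH libraries and 1157 to 3186 FPKM in those of ZP. Within ZP that sum was 3186 and 3068 FPKM at day 35, 1157 and 1162 at day 45, 1252 and 1367 at day 55, and 1213 and 1187 at day 61. Within MH it was 772 and 674 FPKM at day 35, 515 and 459 at day 45, 559 and 501 at day 55, and 786 and 859 at day 61. It was thus highest in ZP at the day when CHI4D was lowest there. From day 45 to 55 in ZP and from day 55 to 61 in MH both were higher at the later day, and from day 35 to 45 in MH both were lower. In ZP from day 35 to 45 and from day 55 to 61 the sum was lower at the later day and CHI4D higher. In MH from day 45 to 55 CHI4D was lower and the sum higher within each replicate number, with overlapping libraries. Of the list, 7 to 11 genes were listed at 0 in an MH library and 0 to 5 in a ZP library, and its part in the CHI4D values was not tested.

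**Figure D3:**
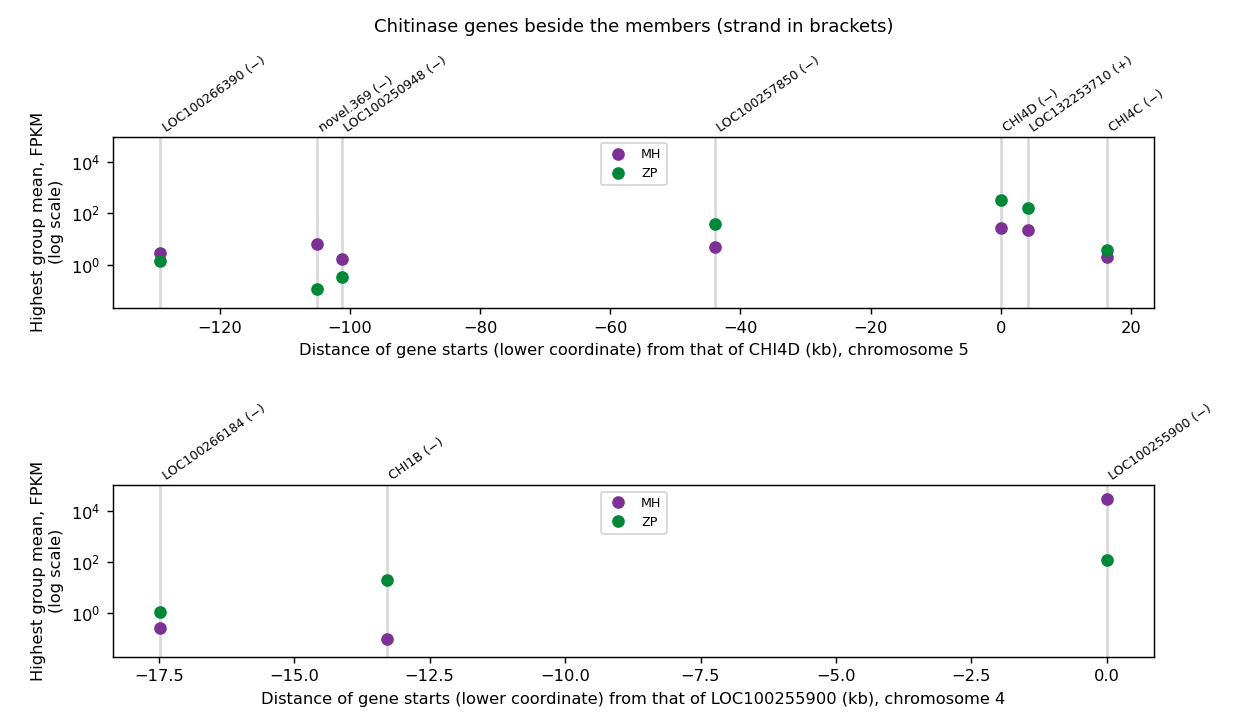
Chitinase genes within 150 kb of CHI4D (top) and of LOC100255900 (bottom), placed by their distance in kb, with the highest group mean (FPKM, log scale) of each gene in MH (purple) and ZP (green) and the strand in brackets. CHI4D and LOC132253710 were high side by side, whereas LOC100255900 and CHI1B were high in different varieties.

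The make-up of chitinase transcripts differed between the varieties as a result. In all, 21 genes of the table were described as chitinases, 18 of them besides the 3 above. Their summed level was 582 to 1190 FPKM in the ZP libraries, 500 and 664 FPKM in MH at day 35, and 20049 to 34285 FPKM in MH from day 45 on. LOC100255900 made up 26.4% and 36.4% of that sum in MH at day 35 and 99.5% to 99.6% from day 45 on. In ZP, CHI4D made up 0.0996% and 0.152% of it at day 35 and 32.3% and 32.5% at day 61, and LOC132253710 made up 14.8% and 16.7% at day 61. The chitinase-like protein 2 gene LOC100261982, of the group linked to cellulose deposition, had the highest group mean in ZP at days 35, 45 and 55, with 504 ± 4.17, 909 ± 180 and 325 ± 54.9 FPKM. At day 55 its libraries overlapped those of CHI4D, which had the highest mean at day 61.

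**Figure D4:**
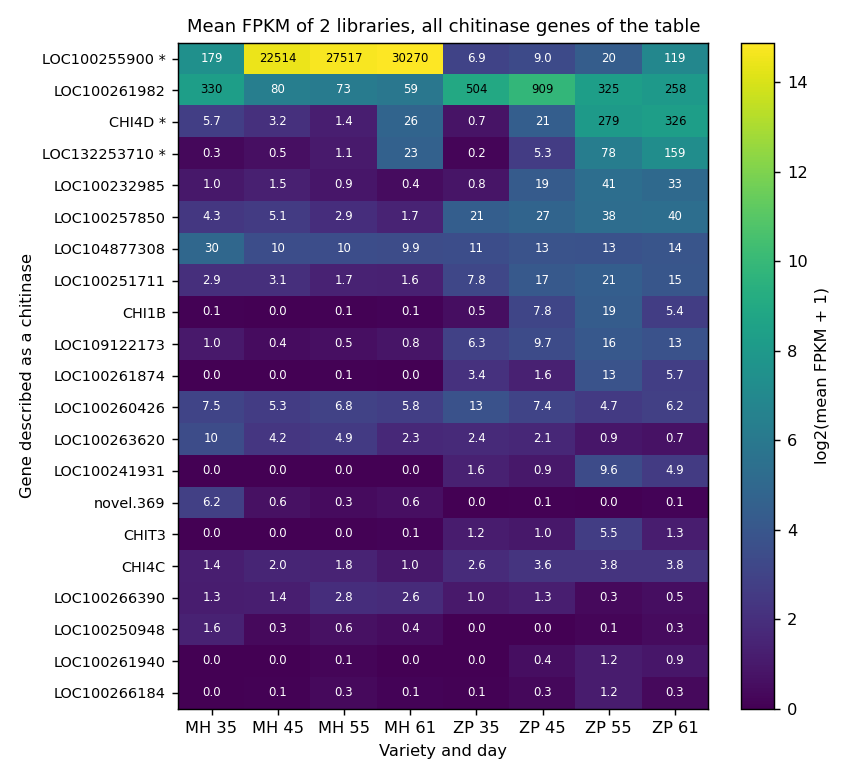
Mean FPKM (n = 2 libraries, printed in each cell) of the 21 genes described as chitinases in the 8 groups of variety and day, coloured by log2(mean FPKM + 1) and ordered by highest group mean; stars mark the 3 genes described in full. LOC100255900 dominated MH from day 45 on, and CHI4D, LOC132253710 and LOC100261982 stood highest in ZP.

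The 18 other chitinase genes were chosen by description and could be tested; 17 of them reached 1 FPKM in at least 2 libraries. Averaged over the 4 days, 11 of the 17 were higher in ZP, 4 were lower and 2 did not pass (limma, Benjamini-Hochberg adjusted p under 0.05 over 12637 genes). Quantile normalization gave 10 higher and 6 lower. Of all tested genes 88.7% were called, 61.6% higher and 27% lower, so the share of chitinase genes called lay near the background. The table looks selected for genes that vary, since no gene had a range under 0.15 over its 8 group means (log2 scale), and these shares apply to that selection. The median of the 17 was 1.44, beside 0.58 over all tested genes.

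The largest differences toward ZP were in genes of several chitinase classes. The basic endochitinase LOC100232985 was higher by 3.00 ± 0.14 (adjusted p = 7.44e-11), and its level in ZP was 0.778 ± 0.135 FPKM at day 35 and 41.4 ± 5.20 at day 55. The PR4-like gene LOC100257850 was higher by 2.88 ± 0.07 (adjusted p = 1.78e-13) and LOC109122173 by 2.80 ± 0.08 (adjusted p = 9.23e-13). The table describes LOC109122173 as a G-type lectin receptor kinase and matches it to a class V chitinase. CHI1B was higher by 2.59 ± 0.06 (adjusted p = 6.95e-14). In these last 3 genes all 8 ZP libraries stood above all 8 MH libraries, as in 30.3% of all genes, and in LOC100232985 the varieties overlapped. The 1 gene that met the naming rule among those lower in ZP was LOC100263620 (-1.26 ± 0.10, adjusted p = 3.03e-08), which is described as endochitinase A but has no chitinase domain in the table.

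From day 35 to day 61 falls outnumbered rises among the other chitinase genes in MH, as they did among all tested genes. In ZP rises outnumbered falls among the other chitinase genes, but not among all tested genes. In MH 1 of 17 rose and 7 fell, with 9 not passing, while 68% of all genes were called, 15.8% up and 52.1% down (2 and 5 after quantile normalization). In ZP 11 rose and 3 fell, while 66.9% of all genes were called, 31.9% up and 35% down. Leaving out 1 library gave 7 and 3 (without ZP day 35 replicate 2) or 7 and 4 (without ZP day 61 replicate 2), and leaving out replicate 2 of ZP at days 35, 45 and 55 gave 7 and 2. Of the 17 genes, 4 were called in opposite directions in the varieties and 2 in the same direction, beside 13.7% and 31.4% of all genes. The difference of the 2 changes, tested itself, was called in 15 of 17 genes, 14 toward ZP and 1 toward MH, while 69.1% of all genes were called, 48.5% toward ZP and 20.7% toward MH. After quantile normalization it was called in 9 and 2.

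Examples show both the size and the levels of these changes. LOC100232985 rose by 4.25 ± 0.27 in ZP (adjusted p = 1.51e-08), while its MH change of -0.42 ± 0.27 did not pass (adjusted p = 0.191). Rises in ZP were also called in LOC100257850 (0.89 ± 0.14) and LOC109122173 (0.88 ± 0.17), with adjusted p-values of 9.42e-05 and 0.000355. The chitinase-like protein 2 gene LOC100261982 fell in both varieties, at -2.43 ± 0.27 in MH (adjusted p = 3.71e-06) and -0.97 ± 0.27 in ZP (adjusted p = 0.00688). The ZP call was lost without those 3 ZP libraries (-0.98, adjusted p = 0.0501). The chitinase domain-containing protein 1 gene LOC104877308 fell in MH at -1.52 ± 0.13 (adjusted p = 1.95e-07), from 30.3 ± 0.761 to 9.93 ± 0.478 FPKM. LOC100263620 also fell in both, at -1.78 ± 0.20 in MH (adjusted p = 3.69e-06) and -1.01 ± 0.20 in ZP (adjusted p = 0.000553), and the chitinase 2-like gene LOC100260426 fell in ZP at -0.93 ± 0.18 (adjusted p = 0.00051).

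Genes of beta-1,3-glucanases, enzymes that act beside chitinases on fungal walls and also cut the plant's own callose, were read from the same fit. The list was taken by description and also holds a gene described as a callose-binding protein, so its counts are not of glucanases alone. Averaged over the days, 30 of 41 were higher in ZP and 5 lower, beside 61.6% and 27% of all genes. Median-ratio scaling gave 21 and 14, and quantile normalization 19 and 14. The basic vacuolar glucanase LOC100232986 was higher by 4.24 ± 0.19 (adjusted p = 5.47e-11) and its day 55 level was 121 ± 4.15 FPKM in ZP against 1.76 ± 1.54 FPKM in MH. LOC100265897 was higher by 3.67 ± 0.10 (adjusted p = 3.95e-13). Lower in ZP on average were the glucanase LOC100260517 (-5.86 ± 0.16, adjusted p = 3.74e-13), at 229 ± 72.4 FPKM in MH and 0.243 ± 0.136 in ZP at day 35, and a plasmodesmata callose-binding protein 3 gene (LOC100241539, -1.33 ± 0.05, adjusted p = 1.72e-11). The latter stood higher in ZP at day 35 (99.96 ± 1.70 against 46.6 ± 3.99 FPKM) and lower at the 3 later days. From day 35 to 61, 5 rose and 18 fell in MH, beside 15.8% and 52.1% of all genes (11 and 17 after median-ratio scaling, 11 and 14 after quantile normalization). In ZP 13 rose and 24 fell, beside 31.9% and 35% of all genes. The difference of the changes was called in 19 genes toward ZP and 17 toward MH, beside 48.5% and 20.7% of all genes (16 and 18 after median-ratio scaling, 12 and 20 after quantile normalization).

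Plants sense chitin fragments through LysM domain proteins at the cell surface. Genes were listed for this by description, and whether each of them acts in chitin sensing was not tested. All 13 genes of that list were called between the varieties, 10 higher and 3 lower in ZP, which is beside the 88.7% of all genes. The LysM GPI-anchored protein genes LOC100247526 and LOC100257272 stood above their MH levels by 2.54 ± 0.06 and 2.06 ± 0.11, with adjusted p-values of 8.4e-14 and 3.89e-10. From day 35 to 61, 1 rose and 4 fell in MH, beside 15.8% and 52.1% of all genes, a split that turned to 4 and 1 after median-ratio scaling and 8 and 1 after quantile normalization, with 1 and 2 after rescaling without the storage genes. In ZP 2 rose and 6 fell, beside 31.9% and 35% of all genes. The difference of the changes was called in 3 genes toward ZP and 5 toward MH, beside 48.5% and 20.7% of all genes (1 and 5 after median-ratio scaling, 1 and 7 after quantile normalization).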

How the data were processed

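Total RNA of grape ovules was read on an Illumina NovaSeq X Plus instrument. Per the file headers, the values the authors deposited are FPKM; aligner, counting tool, genome build and use of strand are not given in the sources used here. Variety, day and replicate came from the labels. Without a statement that libraries came from separate plants, p-values measure the spread between libraries, which may be technical. The 3 genes and all lists (patterns on gene descriptions) were chosen with earlier results of these data known.

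The 12637 genes (of 13411) that reached 1 FPKM in 2 or more libraries entered limma 3.58.1 (R 4.3.3) on log2(FPKM + 1), with a mean-dependent prior variance, 1 mean for each of 8 groups and 8 residual degrees of freedom. Two-sided p-values were adjusted by Benjamini-Hochberg over all tested genes. The fit was tested on simulated data. Named genes other than the 3 were called genes with the largest change and at least 10 FPKM in a compared group (up to 4 each way for the variety comparison, 3 for each time course, 2 for other lists). Relative depth came from the most common ratio of low FPKM values between libraries, taken along a chain of libraries. With it, whole multiples of a step were found in 5225 of 8155 low genes (64.1%, within 0.06 of a step). A library whose fragments came out even in nearly all genes would have its depth divided by 2. The scale came from the most common product of step and RefSeq gene span, held by 931 of 4601 genes, so fragment counts are estimates. Alternatives were another pseudocount, no filter, 3 scalings, no variance trend, a replicate block and leaving out libraries. RefSeq names and positions came from assembly ASM3070453v1; 20 of the 21 chitinase genes matched.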

Additional observations from a re-analysis of the deposited data

Results flagged for a closer look

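In 7 of the 8 other chitinase genes named, the day 61 minus day 35 change differed between the varieties in the test of that difference (ZP change minus MH change, limma, Benjamini-Hochberg adjusted p under 0.05). The differences were 4.67 for LOC100232985 (adjusted p = 2.76e-07), 2.06 for CHI1B (adjusted p = 1.91e-07), 1.90 for LOC104877308 (adjusted p = 8.95e-07) and 1.86 for LOC100257850 (adjusted p = 3.31e-06). They were 1.46 for LOC100261982 (adjusted p = 0.00446), 1.04 for LOC109122173 (adjusted p = 0.00148) and 0.77 for LOC100263620 (adjusted p = 0.0279). All 7 pointed toward ZP, beside 69.1% of all genes called, 48.5% toward ZP, and a median of 0.49 over all genes. The named genes were picked for large changes in these same data, so the shares are not a like comparison. The means of LOC100263620 at days 35 and 61 were 10.1 and 2.28 FPKM in MH and 2.35 and 0.674 FPKM in ZP. Changes at such low ZP levels look smaller on the log2(FPKM + 1) scale. In the other named gene, LOC100260426, the difference of -0.60 pointed toward MH and did not pass (adjusted p = 0.0515).

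In CHI4D both ZP libraries stood below both MH libraries at day 35 (-1.94) and above them at day 45 (2.40), day 55 (6.86) and day 61 (3.57). Of all tested genes, 37.3% were lower in ZP without overlap at day 35. At days 45, 55 and 61, 64.9%, 60.8% and 62.7% were higher without overlap, so each direction was common by itself. How many genes turn direction between days was not counted. The turn of direction in CHI4D was not tested, since CHI4D was chosen with these values known.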

How the results depend on the processing

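Of 504 values recomputed for 21 results under 24 alternatives, 480 moved by no more than the spread between libraries, or by no more than 1.5 times for totals of calls, and no difference of the 3 genes changed sign. Many recomputed differences of the 3 genes could not move. Dropping the filter or the variance trend, or adding a replicate block, leaves these differences unchanged. So does leaving out a library that a contrast over time does not use. For LOC100255900 the spread used as a limit was 1.71 on the log2 scale, so sizeable shifts still passed. The split of calls did turn with scaling: LysM genes in MH over time went from 1 higher and 4 lower to 4 and 1 (median-ratio) and 8 and 1 (quantile), and the glucanase difference of changes from 19 and 17 to 16 and 18 and to 12 and 20. Scaling moved the median difference between the varieties over all genes from 0.58 to 0.10 (median-ratio), 0.42 (rescaled without storage genes) and 0.06 (quantile), and some values of the 3 genes moved with it. For values that moved, the cause was not tested. The average ZP minus MH difference of CHI4D was 2.12, 2.52 and 2.29 under these 3 scalings, and that of LOC132253710 was 1.96 (median-ratio) and 1.98 (quantile). The MH day 61 minus day 35 difference was 2.70 and 2.51 for CHI4D and 4.91 and 4.68 for LOC132253710 after median-ratio and quantile scaling, and the ZP one of LOC132253710 was 6.90 after median-ratio scaling. A pseudocount of 0.1 gave 8.63 for CHI4D in ZP over time, and 2.93, 6.25 and 9.21 for LOC132253710 (average difference, MH and ZP over time). Leaving out single libraries gave 1.84 to 2.25 for CHI4D and 4.09 to 4.50 for LOC132253710 in MH over time, and 3.02 to 6.78 for LOC100255900 in ZP. Without the 3 ZP libraries the last was 6.78, and 9 in place of 14 other chitinase genes were called in ZP over time. That alternative was chosen after seeing the data and leaves 1 library in 3 groups, assumed to vary like the others. Of the LysM genes, 5 were called in MH over time, 3 after rescaling without storage genes and 9 after quantile normalization.

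The deviations of same-numbered MH and ZP libraries correlated at 0.08, -0.04, -0.57 and -0.11 on the 4 days, so the replicate numbers were not taken to pair the varieties. Over all pairs of groups, days within a variety included, the correlation ran from -0.60 to 0.73. With a replicate block 15 other chitinase genes were called between the varieties, 8 in MH and 15 in ZP over time, in place of 15, 8 and 14. Values of a few fragments, as in LOC132253710 at day 35, set no fold.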

Other observations

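In ZP, 5 genes were over 10-fold higher in replicate 2 than in replicate 1, at 1 FPKM or more, on each of days 35, 45 and 55. They were the endochitinase LOC100255900, cruciferin CRU1 (LOC100246409), the basic 7S globulin LOC100240860, the lipid-transfer protein LOC100266074 and LOC132254747, described as a glycine-rich cell wall structural protein. All 5 were among the 50 genes with the highest group mean in MH, the lowest of them at 4041 FPKM. These 5 genes were found after their values were seen, and the cause was not tested.

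The 2 genes described as chitotriosidase-1, on chromosome 11, were at or near 0 in MH and are named after their values were seen. LOC100241931 was listed at 0 in all 8 MH libraries and had group means of 0.931 to 9.55 FPKM in ZP. LOC100261874 had group means of 0 to 0.0558 FPKM in MH and 1.57 to 13.1 FPKM in ZP. Both stood highest in ZP at day 55, as did CHI1B and the acidic endochitinase CHIT3 (5.55 FPKM), whereas CHI4D and LOC132253710 stood highest at day 61.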
